A study of Mus musculus with 30 samples.

Results

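The immunity-related GTPases (IRGs) are a family of IFN-inducible proteins of the mouse, and 7 of their genes were taken here as members: *Irgm1*, *Irgm2*, *Igtp*, *Iigp1*, *Tgtp1*, *Tgtp2* and *Ifi47*. They were chosen by name, as the genes whose Ensembl identifier maps to these symbols. A row was found for 6 of them among the 39676 genes listed, and *Iigp1* was not analysed here. The data are mRNA-seq counts of 30 whole tumors of B16, a mouse melanoma cell line, taken on day 8 after subcutaneous inoculation of C57BL/6 mice. The control type was B16.GFP.gB.luc (labelled B16-GFP), and the other types were B16.IFNα4.gB.luc (B16-IFNA4) and, likewise, B16.IFNα9.gB.luc (B16-IFNA9), with 10 tumors each, called GFP, IFNα4 and IFNα9 tumors from here on. The cells of the last 2 types carry the named IFN-I gene in a retroviral vector, while all 3, the control included, carry herpes simplex glycoprotein B and luciferase. The lines were made by sorting transduced cells, whether they are clonal is not given in the sources used here, and the tissue of origin of a transcript in a whole tumor is not separated.

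IRGs are GTPases that IFN-γ and IFN-I switch on in many cell types, and they are known for defence against microbes that live in vacuoles. The effector proteins, made from *Iigp1*, *Tgtp1*, *Tgtp2* and *Ifi47*, load onto the vacuole membrane and help to break it. The regulatory proteins, made from *Irgm1*, *Irgm2* and *Igtp*, sit on the cell's own membranes and keep the effectors inactive there. Guanylate-binding proteins (GBPs), the Atg8 conjugation system and ubiquitin ligases act at the same vacuoles. IFN-I acts on its target genes mainly through the interferon-stimulated response element (ISRE), whereas IFN-γ acts through the gamma-activated site (GAS), and IRF1 also binds ISRE-like sequences.

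The 6 members lie in 2 groups on chromosome 11 of GRCm38 (GENCODE M21 annotation). The first group holds *Irgm1* at chr11:48861968-48871683, *Tgtp1* at chr11:48985327-48994172 and *Tgtp2* at chr11:49057194-49064206, all on the minus strand, with *Ifi47* at chr11:49076587-49096974 on the plus strand. The second group holds *Igtp* at chr11:58199556-58207591 and *Irgm2* at chr11:58199618-58222782, which overlap on the plus strand. The promoters of 4 members share 1 arrangement of sites, and these stretches are shown because, among all promoter windows searched, the arrangement was found in this family alone. They come from RefSeq promoter windows of GRCm38.p6 and are written on the strand of the gene, 5′ to 3′. The first block of capitals is a GAS core (TTCNNNGAA) and the second an ISRE core (GAAANNGAAA).
Tgtp1, chr11:48992302-48992346, minus strand: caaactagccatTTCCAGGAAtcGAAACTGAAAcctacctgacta
Tgtp2, chr11:49064261-49064305, minus strand: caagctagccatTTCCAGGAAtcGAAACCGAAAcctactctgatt
Igtp, chr11:58199499-58199543, plus strand: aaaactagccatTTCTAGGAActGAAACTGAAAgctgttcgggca
Irgm2, chr11:58214890-58214934, plus strand: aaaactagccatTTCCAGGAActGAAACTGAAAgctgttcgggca

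In each of these 4 stretches 2 bases separate the GAS core from the ISRE core. Among all 32851 windows of 300 bases, searched on both strands, 5 held this arrangement with the same spacing (0.01522%). The order and spacing searched for were those of these 4 stretches, so their own hits were fixed in advance. The fifth was the window of *Gm12185*, another IRG gene. The stretches of *Igtp* and *Irgm2* were identical at 44 of 45 bases, those of *Tgtp1* and *Tgtp2* at 37 of 45, and those of *Tgtp1* and *Igtp* at 33 of 45. These genes are relatives by descent, so their promoters are not independent examples. Taken singly, an ISRE core was found in 5 of 6 member windows against 3.443% of all windows, and a GAS core in 4 of 6 against 8.298%. Of 6 windows of GBP genes, 5 held an ISRE core and 2 a GAS core, and of 6 windows of other IRG relatives 3 and 2 did. All 6 members had a window. That of *Irgm1* held an ISRE core and no GAS core, and that of *Ifi47* held neither. The letters of a motif describe the sequence and were not tested for binding. The stretches of *Tgtp1* and *Irgm2* lie in introns of longer GENCODE transcripts of the same gene, that of *Tgtp2* lies outside the gene, and that of *Igtp* lies in no annotated gene.

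Sequence shared between members limits what a count says. Of all stretches of 50 bases in the transcripts of *Tgtp1*, 79.4% also occur in *Tgtp2*, and 85.8% of those of *Tgtp2* occur in *Tgtp1*. Reads of 50 bases, the length sequenced, can thus often not be assigned to one of the pair. The deposited counts of *Tgtp2* were 1.05 to 1.15 times those of *Tgtp1* in GFP tumors, 1.06 to 1.10 times in IFNα4 tumors and 1.01 to 1.05 times in IFNα9 tumors. The pair is therefore best read as 1 signal wherever both genes are counted. *Igtp* and *Irgm2* share 162 exon bases on the same strand, which is 8.01% of the exon bases of *Igtp* and 4.39% of those of *Irgm2*. *Ifi47* shares 111 exon bases with *Olfr56* on the same strand. Of the stretches of *Irgm1*, 0.31% occur in another gene.

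Tumors had between 14598517 and 19788383 counts in total, and 15926 genes had a mean of at least 10 counts and were tested. GFP tumor 7 stood apart: it had the lowest total, the lowest TMM scaling factor (0.768, next lowest 0.856) and the highest sum of the melanoma markers *Tyr* and *Tyrp1* (22140 CPM, next highest 12401). It was also the lowest GFP tumor for all 6 members, and the calls, pair tests and correlations were repeated without it. Markers of other cells differed between tumor types. *Ptprc*, the pan-leukocyte marker CD45, ran from 19.6 to 118 CPM (counts per 1000000 after TMM scaling) in GFP, 292 to 768 in IFNα4 and 161 to 475 in IFNα9 tumors. The sum of 3 NK cell markers ran from 2.05 to 8.97, 39.0 to 112 and 29.1 to 90.8 CPM in the same order, and the sum of 4 T cell markers from 1.43 to 50.3, 35.2 to 73.8 and 12.5 to 48.4 CPM. The sum of 2 of 6 melanoma markers, *Tyr* and *Tyrp1*, ran from 6674 to 22140, 1943 to 3222 and 3065 to 8327 CPM. The sum of 3 of 5 macrophage markers overlapped between the types (191 to 855, 410 to 769 and 405 to 802 CPM), and no marker was at 0 in a whole type. Against GFP tumors *Cd68* alone was called, higher by 0.54 ± 0.19 in IFNα4 and 0.44 ± 0.19 in IFNα9 tumors on the log2 scale (adjusted p = 0.0124 and 0.0424, edgeR). Without GFP tumor 7, *Csf1r* (-0.38) and *C1qa* (-0.52) were also called, as lower, in IFNα4 tumors (adjusted p = 0.00973 and 0.0151, edgeR). In IFNα9 tumors none of the 3 was called in that fit. The sum of 3 endothelial markers ran from 127 to 327, 181 to 298 and 89.3 to 168 CPM, and all 3 were lower in IFNα9 than in IFNα4 tumors, without overlap of the sums. Against GFP tumors the endothelial markers did not move together in IFNα4 tumors, where *Kdr* rose by 1.35 ± 0.16 on the log2 scale (adjusted p = 1.6e-08, edgeR) and *Pecam1* (-0.43 ± 0.13) and *Cdh5* (-0.84 ± 0.18) fell. In IFNα9 tumors *Pecam1* (-0.99 ± 0.13) and *Cdh5* (-1.51 ± 0.19) fell against GFP tumors (adjusted p of at most 3.23e-07, edgeR). *Kdr* was not called there (-0.004 ± 0.155, adjusted p = 0.982, edgeR). The sum of 3 neutrophil markers ran from 6.61 to 40.1, 34.2 to 73.5 and 18.6 to 39.3 CPM, and that of 3 skeletal muscle markers from 2241 to 11509, 2558 to 9432 and 956 to 8296 CPM, and 2 of 3 of each were lower in IFNα9 than in IFNα4 tumors. Of the neutrophil markers, *Csf3r* alone rose against GFP tumors, by 2.01 ± 0.23 in IFNα4 and 1.23 ± 0.22 in IFNα9 tumors on the log2 scale, while *S100a8* (-0.72 and -1.14) and *S100a9* (-0.72 and -1.88) fell in both (adjusted p of at most 0.0377, edgeR). Of the muscle markers, *Ckm* (-0.98 ± 0.37) and *Acta1* (-1.19 ± 0.33) fell in IFNα9 against GFP tumors (adjusted p = 0.0235 and 0.00281, edgeR). None of the muscle markers was called between IFNα4 and GFP tumors. Between the IFN types, 2 of 3 NK cell markers were lower in IFNα9 than in IFNα4 tumors. Their log2 fold changes were -0.63 ± 0.20 for *Nkg7* and -0.78 ± 0.24 for *Klrb1c* (adjusted p = 0.0284 and 0.0203, edgeR). *Tyrp1* was higher in IFNα9 than in IFNα4 tumors, by 0.81 ± 0.19 (adjusted p = 0.00269, edgeR). None of the tested T cell, macrophage, fibroblast and keratinocyte markers was called between the IFN types. The part of cell composition in the results was not tested, and in whole tumors fewer cells of a kind and less RNA per cell cannot be told apart.

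*Irgm1*, a regulator that is also known for its role in autophagy and in resistance to mycobacteria, rose in both IFN types. Its level in GFP tumors ran from 58.8 to 157 CPM with a median of 91.5. In IFNα4 tumors it ran from 398 to 661 with a median of 589, and in IFNα9 tumors from 474 to 1040 with a median of 702. The lowest IFN tumor was above the highest GFP tumor, by 2.54 times in IFNα4 and 3.03 times in IFNα9, while the 2 IFN types overlapped. *Irgm1* rose by a log2 fold change of 2.47 ± 0.18 (SE) in IFNα4 tumors (5.56-fold, adjusted p = 5.44e-13, edgeR quasi-likelihood test with Benjamini-Hochberg adjustment) and by 2.86 ± 0.18 in IFNα9 tumors (7.24-fold, adjusted p = 1.11e-13).

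*Irgm2* and *Igtp*, the other regulators, which protect cell membranes from the effectors, also rose in both. *Irgm2* ran from 17.1 to 114 CPM (median 69.9) in GFP, 321 to 505 (median 457) in IFNα4 and 308 to 882 (median 533) in IFNα9 tumors. *Igtp* ran from 12.5 to 113 CPM (median 47.4) in GFP, 314 to 495 (median 448) in IFNα4 and 367 to 1179 (median 597) in IFNα9 tumors. For both genes the GFP tumors lay below all IFN tumors, and the IFNα9 tumors covered a wider range than the IFNα4 tumors. *Irgm2* rose by a log2 fold change of 2.67 ± 0.22 in IFNα4 and 3.02 ± 0.23 in IFNα9 tumors (adjusted p = 1.79e-11 and 3.98e-12). *Igtp* rose by 2.97 ± 0.28 and 3.60 ± 0.29 (adjusted p = 2.87e-10 and 1.79e-11).

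*Tgtp1* and *Tgtp2*, which encode the T-cell-specific GTPases first described in activated T cells, had the largest fold changes of the members. *Tgtp1* ran from 18.0 to 157 CPM (median 47.4) in GFP, 458 to 995 (median 720) in IFNα4 and 805 to 2705 (median 1463) in IFNα9 tumors. *Tgtp2* ran from 20.7 to 167 CPM (median 53.6), 497 to 1070 (median 782) and 824 to 2767 (median 1510) in the same order. Every IFN tumor was above every GFP tumor, and 6 of 10 IFNα9 tumors were above the highest IFNα4 tumor. *Tgtp1* rose by a log2 fold change of 3.42 ± 0.33 (10.7-fold) in IFNα4 and 4.56 ± 0.35 (23.6-fold) in IFNα9 tumors (adjusted p = 4.53e-10 and 6.91e-12), the latter being rank 16 of all 15926 genes. With the counts of *Tgtp1* and *Tgtp2* summed into 1 gene, the log2 fold changes were 3.42 and 4.52 (adjusted p = 3.80e-10 and 6.71e-12).

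*Ifi47*, the remaining effector measured, rose in both IFN types to almost the same level. It ran from 12.9 to 57.1 CPM (median 37.5) in GFP, 150 to 260 (median 238) in IFNα4 and 164 to 366 (median 244) in IFNα9 tumors. Here too the GFP tumors stood below all others, and the ranges of the 2 IFN types overlapped. *Ifi47* rose by a log2 fold change of 2.61 ± 0.20 in IFNα4 and 2.80 ± 0.20 in IFNα9 tumors (adjusted p = 2.00e-12 and 1.32e-12).

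**Figure D1:**
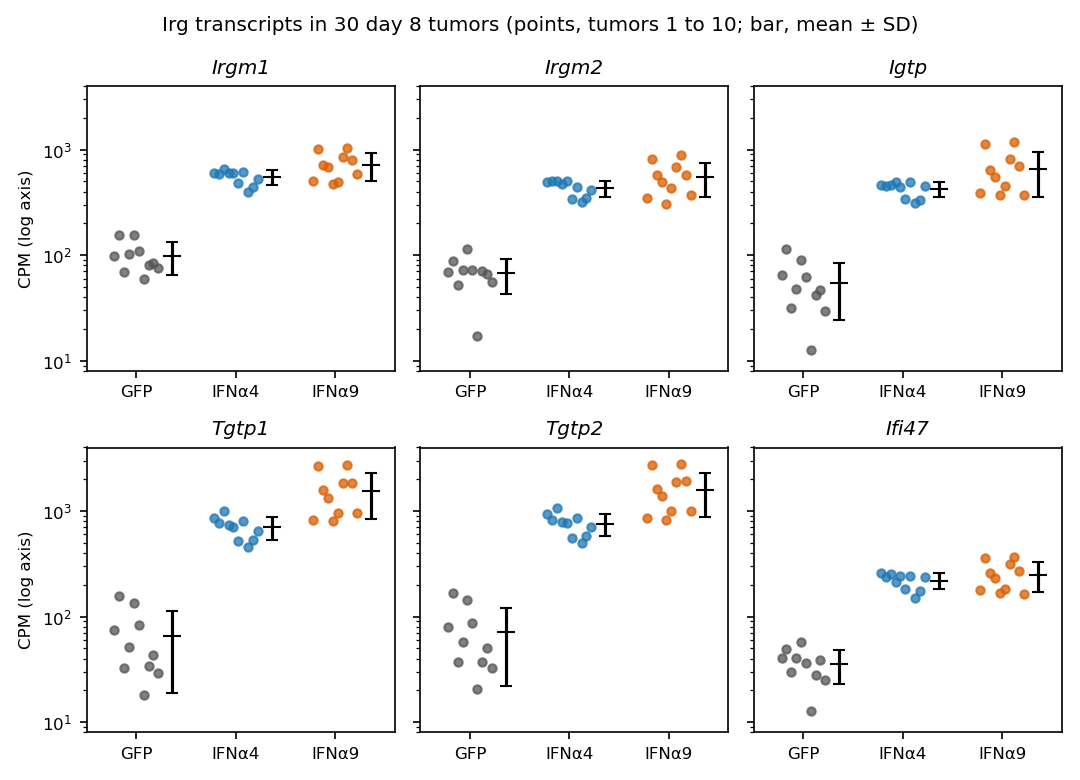
Level of each member in each tumor, in CPM on a log axis, by tumor type. Points are tumors 1 to 10 from left to right, and the bar is the mean ± SD of 10 tumors. The GFP tumors lie below all IFN tumors for every gene, GFP tumor 7 is the lowest point, and *Tgtp1* and *Tgtp2* spread from 805 to 2767 CPM in IFNα9 tumors.

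All 6 members measured were thus DEGs with higher levels in both comparisons with GFP tumors, where 31.3% of all genes tested were higher in IFNα4 and 26.9% in IFNα9 tumors. Tumors of the IFN type lay above all GFP tumors for all 6 members in both comparisons, against 8.50% of all genes in IFNα4 and 4.44% in IFNα9 tumors. The median log2 fold change over the 6 members was 2.82 in IFNα4 and 3.31 in IFNα9 tumors, while the medians over all genes were 0.009 and -0.003. These 2 comparisons share the GFP tumors. Without GFP tumor 7, all 6 members were still called in both, with log2 fold changes from 2.43 (*Irgm1*) to 3.33 (*Tgtp2*) in IFNα4 tumors and from 2.70 (*Ifi47*) to 4.45 (*Tgtp1*) in IFNα9 tumors. Together the 6 members took 0.0389% ± 0.0208 (SD, n = 10) of all counts in GFP, 0.312% ± 0.056 in IFNα4 and 0.546% ± 0.222 in IFNα9 tumors.

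Levels were also set against length, as mean CPM per kb of all annotated exon bases of a gene. This length need not be that of the transcripts made. The order of the members rests on it, with 5810 bases for *Irgm1* and 2022 for *Igtp*. By mean CPM alone *Irgm1* was the highest member in GFP tumors (98.9 CPM, against 54.1 for *Igtp*). Per kb, the order was the same in IFNα4 and IFNα9 tumors, and the GFP order differed by the place of *Igtp*. In GFP tumors the order was *Igtp* (26.8 CPM per kb), *Tgtp2* (24.2), *Tgtp1* (20.5), *Irgm2* (18.4), *Irgm1* (17.0) and *Ifi47* (14.5), and no neighbours differed by more than the larger of their SDs. In IFNα4 tumors it was *Tgtp2* (259 CPM per kb), *Tgtp1* (219), *Igtp* (210), *Irgm2* (117), *Irgm1* (94.7) and *Ifi47* (88.7). There the steps from *Igtp* to *Irgm2* and from *Irgm2* to *Irgm1* were larger than the SDs and held in 10 of 10 tumors. In IFNα9 tumors the order was *Tgtp2* (543 CPM per kb), *Tgtp1* (485), *Igtp* (325), *Irgm2* (149), *Irgm1* (123) and *Ifi47* (101), and only the step from *Igtp* to *Irgm2* exceeded the SDs, while within tumors each of the 5 steps held in 10 of 10. In IFNα4 tumors the steps held in 5 (*Tgtp1* over *Igtp*) to 10 of 10 tumors, and in GFP tumors in 5 (*Tgtp1* over *Irgm2*) to 10 of 10. The division of reads between *Tgtp1* and *Tgtp2* is uncertain, so the order of these 2 is not a measured difference.

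Whether members responded unequally was asked within each tumor, from the log2 ratio of 2 members, in which the scaling of the library nearly cancels. For *Tgtp1* over *Irgm1* the log2 ratio ran from -1.70 to 0.001 (median -0.97) in GFP tumors, from 0.09 to 0.59 (median 0.30) in IFNα4 and from 0.71 to 1.40 (median 1.04) in IFNα9 tumors. The 3 types did not overlap in this ratio. The mean ratio was 1.16 higher on the log2 scale in IFNα4 than in GFP tumors, 1.86 higher in IFNα9 than in GFP tumors and 0.70 higher in IFNα9 than in IFNα4 tumors (adjusted p = 5e-05 each, two-sided permutation test with 100000 resamples, adjusted over 45 tests). Leaving out GFP tumor 7, the inverse ratio, *Irgm1* over *Tgtp1*, differed by -1.06 and -1.76 in the first 2 of these comparisons (adjusted p = 3.75e-05 each, permutation test). *Tgtp1* over *Ifi47* ran from 0.14 to 1.67 in GFP, 1.47 to 1.98 in IFNα4 and 2.20 to 2.90 in IFNα9 tumors, and here GFP tumor 2 reached into the IFNα4 range.

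With *Tgtp1* standing for the *Tgtp* pair, there were 10 pairs of members, and the response differed for 8 of them between IFNα4 and GFP tumors, for 8 between IFNα9 and GFP tumors and for 8 between IFNα9 and IFNα4 tumors. Counting *Tgtp2* as well, 12, 13 and 13 of 15 pairs passed, and the last 2 counts include *Tgtp1* and *Tgtp2* themselves, whose division of reads is uncertain. The counts without GFP tumor 7 were 7, 8 and 8 of 10, and the pair that no longer passed was *Irgm1* and *Irgm2*. *Tgtp1*, *Tgtp2* and then *Igtp* rose more than the remaining 3 members in both comparisons with GFP tumors. For example, the log2 ratio of *Igtp* to *Irgm1* was 0.64 higher in IFNα4 than in GFP tumors (adjusted p = 0.000104, permutation test), although the 2 genes are both regulators. For *Irgm1* and *Ifi47*, a regulator and an effector, the mean log2 ratio was 1.49 ± 0.30 (SD) in GFP, 1.33 ± 0.10 in IFNα4 and 1.53 ± 0.11 in IFNα9 tumors. The first 2 types did not pass the test (adjusted p = 0.129, permutation test), nor did the first and the last (adjusted p = 0.723), while IFNα9 and IFNα4 tumors differed by 0.20 (adjusted p = 9.78e-05). Ordered by size of response, the members did not fall into regulators and effectors.

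**Figure D2:**
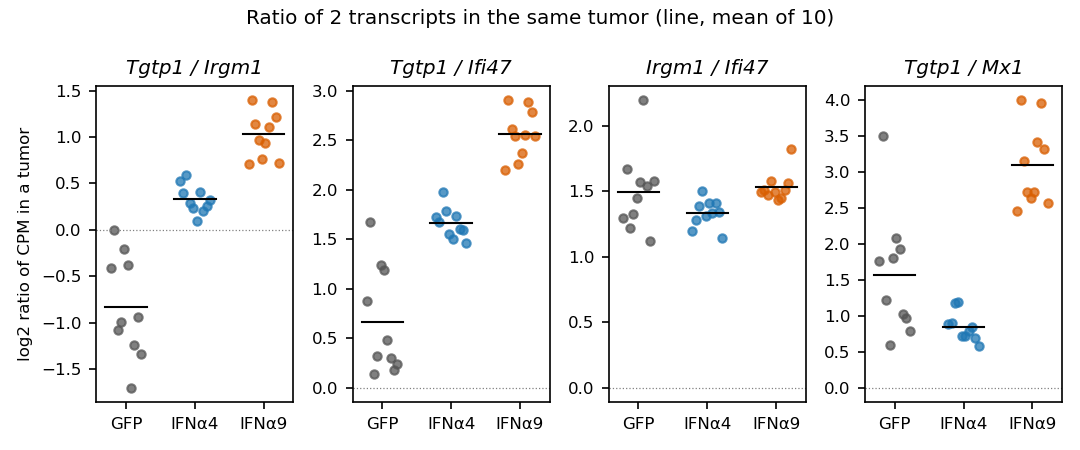
Log2 ratio of the CPM of 2 transcripts in the same tumor, by tumor type, with a line at the mean of 10 tumors. *Tgtp1* over *Irgm1* separates all 3 types, *Irgm1* over *Ifi47* stays near 1.33 to 1.53 on average, and *Tgtp1* over *Mx1* is lowest in IFNα4 tumors.

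IFNα9 and IFNα4 tumors were compared next. Each type came from its own transduced line, so IFN-I subtype, line and amount of IFN-I secreted cannot be told apart here. All 6 members had higher mean levels in IFNα9 tumors, but only *Tgtp1* and *Tgtp2* rose (2 of 6, against 10.5% of all genes called higher and 17.8% called in either direction). Their log2 fold changes were 1.14 ± 0.31 for *Tgtp1* (2.21-fold, adjusted p = 0.00871, edgeR) and 1.07 ± 0.30 for *Tgtp2* (2.10-fold, adjusted p = 0.0119), with 10 of 10 IFNα9 tumors above the IFNα4 median. Because these 2 share most of their sequence, they make 1 call and not 2, and the summed gene gave a log2 fold change of 1.10 (adjusted p = 0.0106). *Igtp* had 0.63 (95% interval 0.10 to 1.17, adjusted p = 0.0950), *Irgm1* 0.38 (0.04 to 0.72, adjusted p = 0.113), *Irgm2* 0.34 (-0.08 to 0.77, adjusted p = 0.277) and *Ifi47* 0.18 (-0.19 to 0.56, adjusted p = 0.546). The call for *Igtp* depended on the samples fitted: its adjusted p was 0.0445 without GFP tumor 7 and 0.0210 in a fit of the 20 IFN tumors alone, where *Irgm1* also passed with 0.0494.

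Single IFNα9 tumors differed widely. The highest was 3.36 times the lowest for *Tgtp1* and 3.21 times for *Igtp*, against 2.17 and 1.58 times in IFNα4 tumors. IFNα9 tumors 8 and 2 were the highest and second highest for all 6 members. In IFNα4 tumors, tumor 8 was the lowest for all 6.

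**Figure D3:**
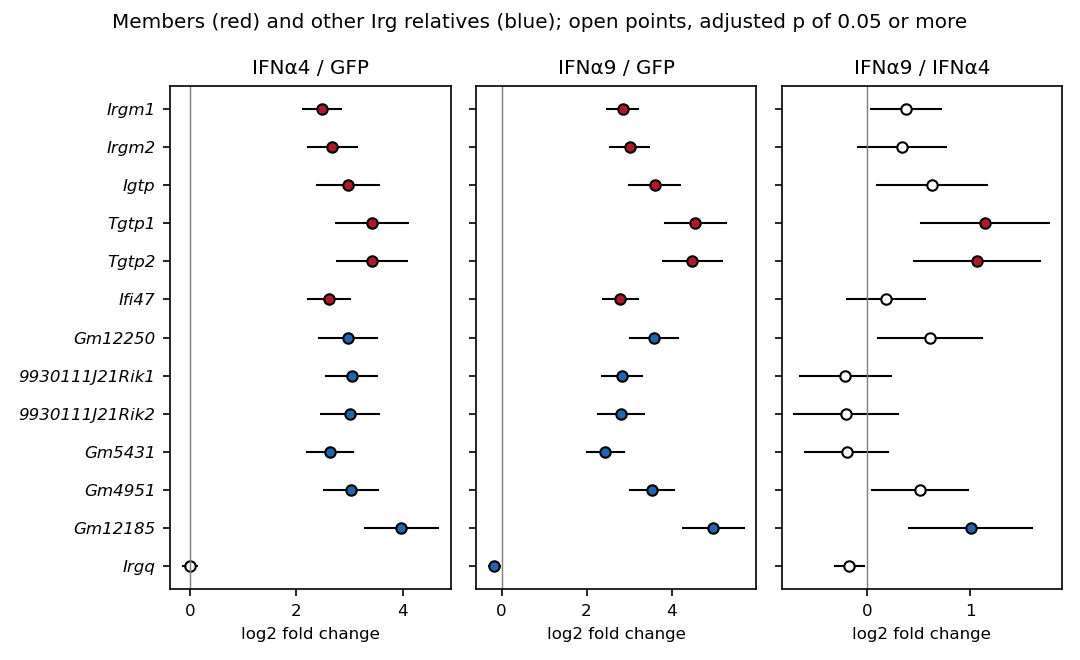
Log2 fold change with 95% interval of the 6 members (red) and 7 other IRG relatives (blue) in the 3 comparisons, from edgeR. Filled points had an adjusted p under 0.05. Against GFP tumors every gene but *Irgq* was higher, and between the IFN types *Tgtp1*, *Tgtp2* and *Gm12185* were called.

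The other IRG relatives are genes and predicted genes of the same family, and 7 of 10 could be tested. In both comparisons with GFP tumors 6 of the 7 rose, also without GFP tumor 7 (31.3% and 26.9% of all genes were higher). The largest log2 fold changes were those of *Gm12185*, 3.97 ± 0.34 in IFNα4 and 4.98 ± 0.35 in IFNα9 tumors, and it shares 223 exon bases with *Tgtp1* on the same strand, so its reads and those of *Tgtp1* can overlap. *Gm12185* was also the only relative called between IFNα9 and IFNα4 tumors (log2 fold change 1.01 ± 0.29, adjusted p = 0.0152, edgeR), where 10.5% of all genes were higher. Without GFP tumor 7, *Gm12250* (0.60, adjusted p = 0.0395, edgeR) and *Irgq* (-0.18, adjusted p = 0.0260) were called as well. *Gm12250* (2.97 and 3.58) and *Gm4951* (3.03 and 3.55) had larger fold changes in IFNα9 tumors, whereas *9930111J21Rik1* (3.04 and 2.83), *9930111J21Rik2* (3.01 and 2.81) and *Gm5431* (2.64 and 2.44) had larger ones in IFNα4 tumors. With all tumors, none of these differences between the IFN types passed the test (adjusted p from 0.0825 to 0.631, edgeR). The 3 last genes share long stretches, 80.4% of the 50-base stretches of *9930111J21Rik1* occurring in *9930111J21Rik2*, and are uncertain in the same way as the *Tgtp* pair. *Irgq*, a relative on chromosome 7, had log2 fold changes of 0.003 ± 0.067 in IFNα4 (adjusted p = 0.974) and -0.17 ± 0.07 in IFNα9 tumors (adjusted p = 0.0349). *Irgc1*, the testis form of the family, had at most 10 counts in a tumor and was not tested.

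GBPs, the larger GTPases that act at the same vacuoles, were measured with 11 genes. All 11 rose in both comparisons with GFP tumors (against 31.3% and 26.9% of all genes), with median log2 fold changes of 3.28 and 4.11. In IFNα4 tumors they ran from 2.78 ± 0.28 for *Gbp2* to 3.94 ± 0.36 for *Gbp10*. Between IFNα9 and IFNα4 tumors 3 of 11 rose, against 10.5% of all genes, namely *Gbp2b* (log2 fold change 2.22 ± 0.41, adjusted p = 0.000270, edgeR), *Gbp4* (1.10 ± 0.32, adjusted p = 0.0141) and *Gbp11* (1.00 ± 0.28, adjusted p = 0.0118). Without GFP tumor 7 it was 6 of 11, with *Gbp2*, *Gbp7* and *Gbp8* added (adjusted p from 0.0206 to 0.0334). In that fit 2041 of all genes were called higher, against 1679 with all tumors.

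The signalling and transcription factor genes of the IFN pathway had median log2 fold changes of 0.62 in IFNα4 and 0.56 in IFNα9 tumors. Of 14 listed, 10 could be tested, and 8 rose in IFNα4 tumors (31.3% of all genes) and 7 in IFNα9 tumors (26.9%). *Ifngr2*, a chain of the IFN-γ receptor, had the lowest value in IFNα4 tumors (0.11 ± 0.06, adjusted p = 0.0848, edgeR, and 0.0426 without GFP tumor 7), and it fell by 0.19 on the log2 scale in IFNα9 tumors (adjusted p = 0.00489). Between the IFN types 1 gene rose and 1 fell: *Irf1*, the transcription factor of the IFN-γ response, was higher in IFNα9 tumors by 0.85 ± 0.22 (adjusted p = 0.00795, edgeR) and *Ifngr2* fell by 0.30 (adjusted p = 0.000313), where 10.5% of all genes were higher and 7.25% lower. Without GFP tumor 7, *Irf9* and *Ifngr1* fell too, by 0.29 and 0.36 on the log2 scale (adjusted p = 0.00140 and 0.0146).

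The Atg8 family and its conjugation genes, which IRG regulators and effectors need to load correctly, did not rise. Of 11 genes 9 were tested, and 0 rose and 3 fell in each comparison with GFP tumors. The median log2 fold changes were -0.10 in IFNα4 and -0.21 in IFNα9 tumors. Of all genes 31.3% rose in IFNα4 and 26.9% in IFNα9 tumors. Of all genes 34.1% fell in IFNα4 and 28.9% in IFNα9 tumors, so that 3 of 9 is near the share of all genes. *Atg5* (-0.25 ± 0.11, adjusted p = 0.0450, edgeR), *Atg7* (-0.20 ± 0.09, adjusted p = 0.0449) and *Gabarap* (-0.22 ± 0.08, adjusted p = 0.0177) fell in IFNα4 tumors, and none of the 3 was called without GFP tumor 7 (adjusted p from 0.0788 to 0.247). In IFNα9 tumors the 3, which were called with and without that tumor, were *Gabarap* (-0.34 ± 0.08), *Map1lc3b* (-0.46 ± 0.11) and *Gabarapl2* (-0.41 ± 0.07). *Map1lc3b* and *Gabarapl2* were also lower in IFNα9 than in IFNα4 tumors (-0.37 ± 0.11 and -0.35 ± 0.07, adjusted p = 0.0147 and 0.000589, edgeR). *Atg16l1* had the highest value in IFNα4 tumors, 0.15 ± 0.07 (adjusted p = 0.0525). Of 3 genes that act on ubiquitin at vacuoles, *Trim21*, itself an ISG, rose by 2.08 ± 0.13 and 2.03 ± 0.13, while *Sqstm1*, the autophagy receptor, fell by 0.46 and 0.33 on the log2 scale. *Traf6* rose in IFNα9 tumors alone, by 0.25 ± 0.07 (adjusted p = 0.00217, edgeR), and had 0.14 ± 0.07 in IFNα4 tumors (adjusted p = 0.0632), but did not differ past the threshold between the 2 (0.11 ± 0.07, adjusted p = 0.276).

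**Figure D4:**
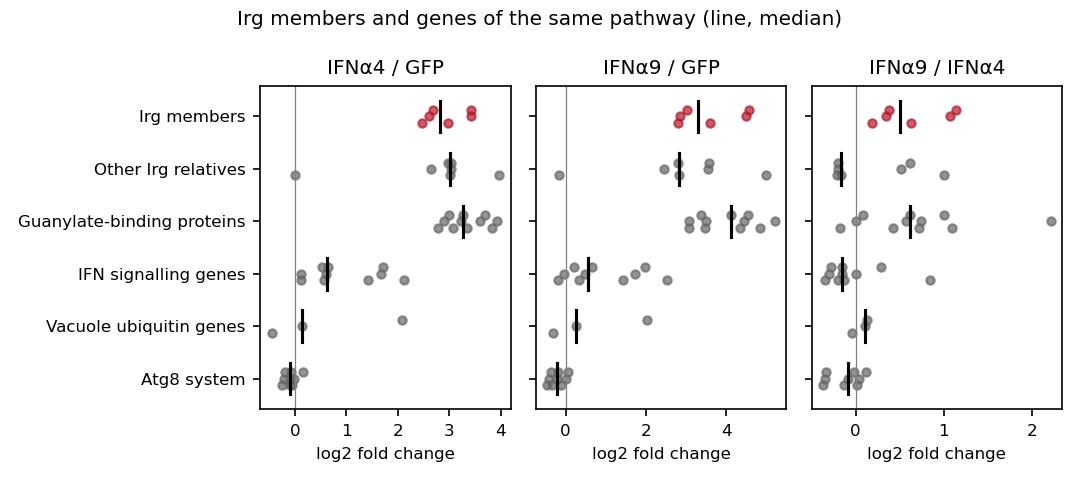
Log2 fold changes of the 6 members (red) and of the tested genes of 5 lists of the same pathway (grey), with a line at the median of each list. Members and GBPs lie at 2.47 or more against GFP tumors, whereas the Atg8 system lies between -0.46 and 0.15.

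The members were set beside *Mx1*, a classical target of IFN-I, and *Ptprc*, with tests that were chosen after the values had been seen. *Mx1* ran from 4.73 to 38.6 CPM in GFP, 253 to 469 in IFNα4 and 129 to 202 in IFNα9 tumors. Between IFNα4 and GFP tumors the ratio of every member to *Mx1* was lower in IFNα4 tumors, by 0.71 to 1.87 on the log2 scale (adjusted p of at most 0.0129, permutation test), and between IFNα9 and GFP tumors 2 of 6 members, *Tgtp1* and *Tgtp2*, rose more than *Mx1* (by 1.54 and 1.45, adjusted p = 0.000754 and 0.000802) and 4 did not pass (adjusted p from 0.0788 to 0.505). *Mx1* fell by 1.22 on the log2 scale between IFNα4 and IFNα9 tumors (adjusted p = 7e-05, edgeR), where the 6 members had positive log2 fold changes. In the same tumor, the log2 ratio of each member to *Mx1* was higher in IFNα9 than in IFNα4 tumors, by 1.34 (*Ifi47*) to 2.25 (*Tgtp1*), each with an adjusted p of 6.55e-05 (permutation test, adjusted over 36 tests). The log2 ratio of *Tgtp1* to *Mx1* ran from 2.46 to 4.00 in IFNα9 and from 0.59 to 1.20 in IFNα4 tumors, without overlap. *Ptprc* had a log2 fold change of -0.52 between IFNα9 and IFNα4 tumors (adjusted p = 0.105, edgeR, and 0.0294 without GFP tumor 7), and the ratio of each member to *Ptprc* was higher in IFNα9 tumors by 0.68 (*Ifi47*) to 1.58 (*Tgtp1*) on the log2 scale (adjusted p of at most 0.00034, permutation test). Between IFNα4 and GFP tumors, 2 of 6 members, *Tgtp1* and *Tgtp2*, rose more than *Ptprc* (by 0.95 and 0.93, adjusted p = 0.0129 each, permutation test). *Irgm2* and *Ifi47* differed from *Ptprc* in that comparison by 0.04 and -0.05 on the log2 scale (adjusted p = 0.812 each). Between IFNα9 and GFP tumors all 6 members rose more than *Ptprc*, by 0.63 to 2.53 on the log2 scale (adjusted p of at most 0.0259, permutation test).

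Among tumors of the same type, the members were set against *Cxcl9*, a chemokine gene that IFN-γ strongly induces, and against *Mx1* and *Ptprc*. *Cxcl9* itself ran from 9.29 to 53.5 CPM in GFP, 232 to 569 in IFNα4 and 129 to 632 in IFNα9 tumors. Against GFP tumors it rose by 4.11 ± 0.31 in IFNα4 and 3.92 ± 0.31 in IFNα9 tumors on the log2 scale. Between IFNα9 and IFNα4 tumors it was not called (-0.19 ± 0.28, adjusted p = 0.684, edgeR). In GFP tumors, Pearson's r of log2 CPM between *Cxcl9* and the members ran from 0.77 (*Irgm2*) to 0.98 (*Tgtp1*), with Spearman's rho from 0.87 to 0.99, and all 6 passed (adjusted p of at most 0.0138, permutation test over 10 tumors, adjusted over 54 correlations). Without tumors 2 and 7, the farthest in *Cxcl9*, r still ran from 0.79 to 0.97. In IFNα9 tumors r ran from 0.88 to 0.95 and rho from 0.85 to 0.94 (6 of 6 passed), and r from 0.85 to 0.92 without tumors 5 and 8. In IFNα4 tumors 5 of 6 passed with r from 0.68 to 0.89 over the 6, but r fell to between 0.49 and 0.82 without tumors 1 and 8, and 1 of 6 passed by Spearman's rho. The differences between these correlations were not tested.

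With *Mx1*, in GFP tumors r ran from 0.58 to 0.87, with 2 of 6 members passing (*Irgm2* and *Ifi47*) and 0 by Spearman's rho, but from -0.06 to 0.28 without tumors 5 and 7, so that it rested on those tumors. In IFNα4 tumors all 6 passed, with r from 0.76 (*Irgm2*) to 0.95 (*Ifi47*), while 3 of 6 passed by Spearman's rho, and r ran from 0.45 to 0.87 without tumors 6 and 8. In IFNα9 tumors r ran from 0.52 to 0.65 and none of the 6 passed (adjusted p from 0.0576 to 0.129, permutation test, with 1 of 6 at an unadjusted p under 0.05), and r ran from 0.61 to 0.74 without tumors 4 and 5. With *Ptprc*, r ran from 0.36 to 0.81 in GFP tumors, where none passed (1 of 6 at an unadjusted p under 0.05). Without GFP tumor 7, r with *Ptprc* lay between -0.26 and 0.09. In IFNα4 tumors 5 of 6 and in IFNα9 tumors 6 of 6 passed with *Ptprc*, with r from 0.57 to 0.85 and from 0.70 to 0.79, and from 0.25 to 0.69 and 0.59 to 0.66 without the 2 farthest tumors. By Spearman's rho, 4 of 6 passed in IFNα4 and 2 of 6 in IFNα9 tumors.

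**Figure D5:**
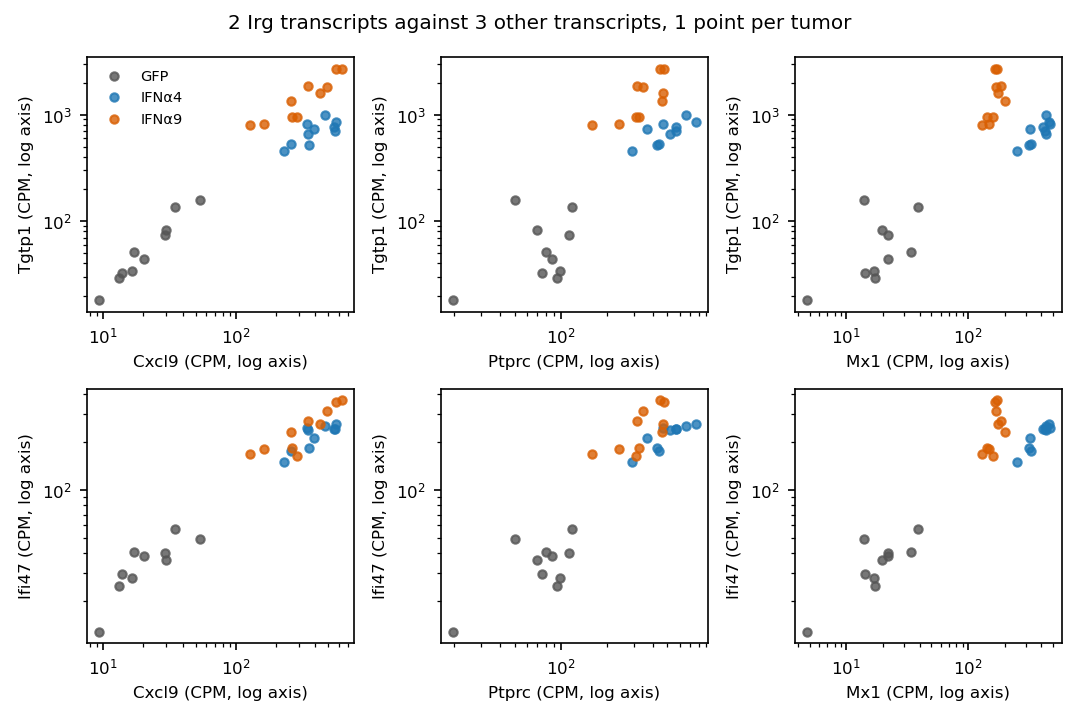
Level of *Tgtp1* (top) and *Ifi47* (bottom) against *Cxcl9*, *Ptprc* and *Mx1*, in CPM on log axes, with 1 point per tumor. Within GFP tumors both follow *Cxcl9*, and the IFNα9 tumors, all with less *Mx1* than the IFNα4 tumors, reach up to 2705 CPM of *Tgtp1*.

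The genes most like each member were taken from the Pearson's r of log2 CPM over 30 tumors, after the mean of each type was subtracted, among 15899 genes. Among the genes most like *Irgm1* were *Gbp10* (r = 0.92) and *Gbp4* (0.91). *Irgm2* was most like *Gbp7* (0.98), *Gbp8* (0.97) and *Gm4951* (0.96), and *Igtp* like *Gbp10*, *Gbp6* and *Gbp4* (0.96 each). *Tgtp1* and *Tgtp2* were most like *Gbp4*, *Gbp10* and *Gbp6* (0.93 to 0.94), and *Ifi47* like *Gm12250* (0.97), *Gbp5* (0.96) and *Gbp3* (0.95). Of the 18 places, 15 were thus taken by GBPs. The 30 tumors share the deviation of GFP tumor 7, and these values are a description. Between members, r after subtraction ran from 0.86 (*Irgm2* and *Tgtp2*) to 0.97 (*Irgm1* and *Tgtp2*), leaving aside the *Tgtp* pair, which share reads.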

How the data were processed

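RNA of 30 whole tumors (10 per type, labelled as biological replicates) was sequenced by the authors from 1 end with 50 bases, after stranded mRNA library preparation. The reads were checked with FastQC 0.11.3 and aligned with HISAT2 2.0.4. The submitters' processing notes and the methods name different mouse builds, and the overlap mode, strand setting and treatment of reads with more than 1 alignment are not given in the sources used here. The deposited values are raw counts per gene from summarizeOverlaps, without normalization. Of 39676 identifiers, 39495 were found in GENCODE M21, which gave symbols and coordinates.

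Genes that averaged 10 counts or more per tumor were kept and tested in R 4.3.3 with edgeR 4.0.16: TMM scaling, 1 quasi-likelihood fit of all 30 tumors, Benjamini-Hochberg adjustment over 15926 genes, called at an adjusted p under 0.05. Members, lists and tests were chosen with earlier results of these data known. CPM are counts per 1000000 of the TMM-scaled total, and log2 CPM a prior count of 2. Pairs and correlations were tested by two-sided permutation in Python 3.11.15 with numpy 2.4.6, where the smallest p possible was 1e-05. Named genes are the members, the tested relatives, the highest and lowest of each list in IFNα4 against GFP tumors, any gene a count of 5 or fewer singles out, and the 3 genes most like each member. Some genes that this rule takes are not reported here. On simulated counts, of 199 genes changed 2-fold among 15936, 93.0% were recovered in the comparison of IFNα4 with GFP tumors (8 unchanged genes called) and 89.9% in that of IFNα9 with IFNα4 tumors (9 called). Every gene was simulated with the same dispersion, 0.08, so these shares need not hold for genes with a wider spread. Same-numbered tumors of 2 types did not deviate together (correlations from -0.27 to 0.30), so the main fit has no block. Alternatives were DESeq2 1.42.0 or its size factors, library totals, filterByExpr, no filter, only the 20 tumors compared, a replicate block, *Tgtp1* and *Tgtp2* summed, and leaving out each tumor.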

Additional observations from a re-analysis of the deposited data

Results flagged for a closer look

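For 13 genes, the 6 members and 7 tested relatives, the highest and lowest tumor of each type was set against the others in log2 CPM, in 39 groups of 10 tumors. In 6 groups 1 tumor lay apart by more than Dixon's 95% critical value, where chance gives about 1.95 of 39, and the groups are not independent since the same tumor enters each. In 5 of them it was GFP tumor 7, as the lowest of its type: *Irgm2* at a log2 CPM of 4.10 (nearest tumor 5.71), *Gm12250* at 1.18 (2.67), *9930111J21Rik1* at 1.23 (3.22), *9930111J21Rik2* at 1.77 (3.82) and *Gm5431* at 2.02 (3.33). In the sixth, *Irgq* stood highest in IFNα4 tumor 6 at 5.64 (nearest tumor 5.41). GFP tumor 7 also had the highest sum of *Tyr* and *Tyrp1* (22140 CPM) and the lowest *Ptprc* (19.6 CPM) of its type, and the part of these in its low IRG levels was not tested.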

How the results depend on the processing

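All 6 members kept their direction and their call against GFP tumors, in both comparisons, under DESeq2, DESeq2 size factors, library totals, filterByExpr, no filter, the 20 tumors alone, the replicate block and in each of the 30 fits without 1 tumor; with *Tgtp1* and *Tgtp2* summed there were 5 genes and 5 calls. Between IFNα9 and IFNα4 tumors 2 members were called, also with the replicate block, but 4 in the fit of the 20 tumors alone (4332 of all genes called, against 2833) and 1 with *Tgtp1* and *Tgtp2* summed, where the pair is 1 gene. Without 1 tumor this count was 2 or 3, being 3 without GFP tumor 7, and the number of all genes called ran from 2106 to 3801 (IFNα9 and IFNα4), 9949 to 10547 (IFNα4 and GFP) and 8412 to 9195 (IFNα9 and GFP). The log2 fold change of *Tgtp1* between IFNα9 and IFNα4 tumors ran from 1.02 (without IFNα9 tumor 8) to 1.24 in those fits, with adjusted p from 0.00368 to 0.0203 (edgeR), and over the other alternatives its adjusted p ran from 0.000555 to 0.0193. For *Igtp* the adjusted p ran from 0.0445 to 0.194 and from 0.0210 to 0.176. In the replicate block by sign changes, 12, 13 and 12 of the 15 pairs of members differed, the *Tgtp* pair included, in place of 12, 13 and 13. Of 54 correlations 36 passed, 36 with a prior count of 0.5, 41 with library totals and 34 without GFP tumor 7. The 28 of 36 tests against *Mx1* and *Ptprc* that passed, chosen after seeing the data, were also 28 with a prior count of 0.5 and without GFP tumor 7. Depth did not limit the members, whose lowest count was 140.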
